A study of Rattus norvegicus with 4 samples.

Results

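The miRNAs described here are miR-423-3p, miR-425-5p and miR-342-3p, 3 of 692 distinct rat mature miRNA sequences searched, of which 407 had reads. They are cut from introns of protein-coding genes and were chosen by their ratios to control in these same libraries, being lower after angiotensin II (Ang II), so those ratios are a description and carry no test. Each was counted as the sum of all reads whose first 18 nt match its mature sequence.

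Small RNA was sequenced from cultured vascular smooth muscle cells of the aorta of Sprague-Dawley rats. All cells were grown in M199 medium with 10% FBS and went without serum for 48 h. One library came from cells with no Ang II (control), and 1 each from cells given 100 nM Ang II, a hormone that constricts vessels and makes these cells grow, for 1 h, 3 h and 24 h. The 4 libraries held 14395539 reads that name a sequence in control cells, 13119417 at 1 h, 14370167 at 3 h and 14534892 at 24 h, of which 68.4%, 72.8%, 74.4% and 71.9% matched a mature miRNA, in the same order.

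Each group is a single library, so no p-value is given. No untreated library was made at each time point, and the effects of Ang II and of time in culture cannot be told apart. All intervals are exact, at 95%, and hold counting error alone; copies made by PCR are not separate molecules. Levels are given as RPM, scaled to the reads that name a sequence.

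An intronic miRNA lies inside the intron of a host gene and is usually transcribed as part of the host's transcript; Drosha and Dicer then cut out a hairpin, whose 5p and 3p arms can both be loaded into Argonaute. The seed, bases 2 to 8 of the mature miRNA, does most of the pairing with target mRNAs. In the RefSeq table for assembly GRCr8, Mir423 lies within Nsrp1, which codes for a nuclear splicing regulator. Mir342 lies within Evl, which codes for an actin regulator of the Ena/VASP family. It also lies within LOC102555052, a long non-coding RNA gene whose strand was not given. Mir425 lies within Dalrd3, 366 nt from Mir191, and all 4 hairpins lie on the strand of their protein-coding host. The host mRNAs were not analysed here. In mammals miR-342-3p is best known from blood and immune cells, and miR-425 and miR-191 are widely expressed.

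Mature sequences from RefSeq (GRCr8) are shown for miR-425-5p, miR-342-3p, the opposite arms and the neighbour of miR-425. The seed, counted from the RefSeq start, is in capitals, because the arms of 1 hairpin carry different seeds.
miR-425-5p: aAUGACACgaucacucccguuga
miR-342-3p: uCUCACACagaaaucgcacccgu
miR-423-5p: uGAGGGGCagagagcgagacuuuu
miR-342-5p: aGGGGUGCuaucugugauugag
miR-425-3p: aUCGGGAAuaucguguccgcc
miR-191a-5p: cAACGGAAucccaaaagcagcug
No other rat mature miRNA in the table shares the seed of miR-423-3p, miR-425-5p or miR-342-3p. The 3 members are each 23 nt long, with 15, 11 and 12 bases of G or C in miR-423-3p, miR-425-5p and miR-342-3p.

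miR-425-5p was the most abundant member and miR-342-3p the least in all 4 libraries, and the 3 summed to 513 RPM in control cells, 428 RPM at 1 h, 455 RPM at 3 h and 340 RPM at 24 h. miR-423-3p had 130.9 RPM in control cells (1884 reads), 98.6 RPM at 1 h (1293), 91.0 RPM at 3 h (1307) and 96.7 RPM at 24 h (1406). Its control level was the highest, and the Poisson intervals at 1 h (93.3 to 104), 3 h (86.1 to 96.0) and 24 h (91.7 to 102) all lay below that of the control (125 to 137) and overlapped each other.
miR-425-5p had 338.4 RPM in control cells (4872 reads), 295.0 RPM at 1 h (3870), 326.4 RPM at 3 h (4691) and 217.2 RPM at 24 h (3157). Only the 24 h library stood far below the others; the 3 h interval (317 to 336) overlapped that of the control (329 to 348), and the 1 h interval (286 to 304) lay below both. miR-342-3p had 44.0 RPM in control cells (634 reads), 34.4 RPM at 1 h (451), 37.7 RPM at 3 h (542) and 26.4 RPM at 24 h (383). Its 3 h interval (34.6 to 41.0) overlapped both the control interval (40.7 to 47.6) and the 1 h interval (31.3 to 37.7), while the 24 h interval (23.8 to 29.1) overlapped none. Among all miRNAs ordered by level, miR-423-3p stood at place 78 in control cells and 90, 89 and 84 at 1 h, 3 h and 24 h, while miR-425-5p stood at 61 at 24 h, against 55 in control cells, and miR-342-3p at 118, against 106.

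**Figure D1:**
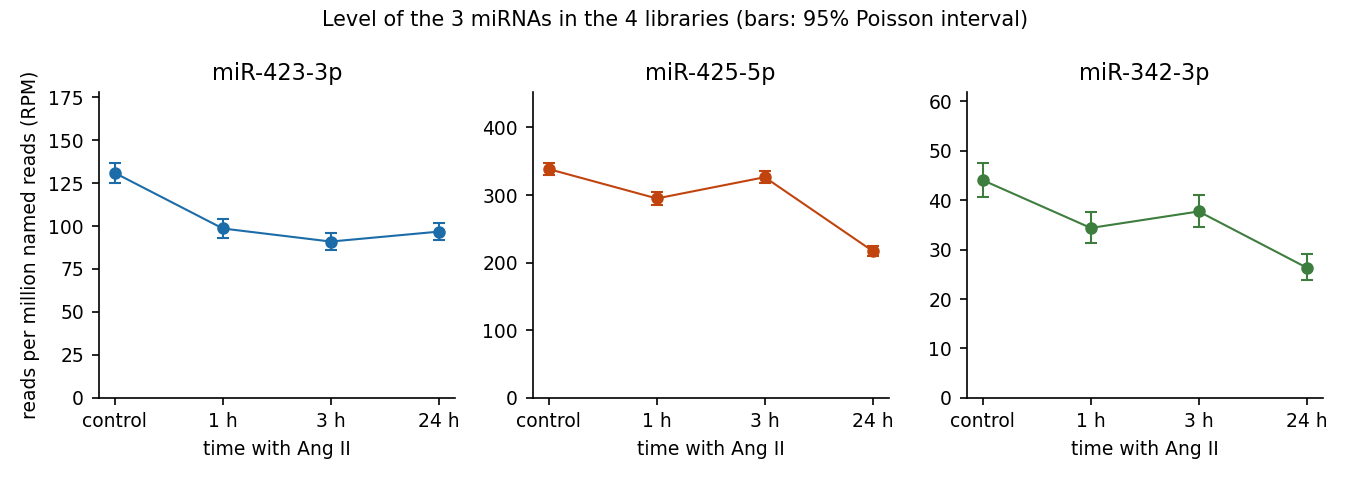
Level of miR-423-3p, miR-425-5p and miR-342-3p (RPM, linear axes from 0) in the control library and after 1 h, 3 h and 24 h of Ang II; points are single libraries and bars exact 95% Poisson intervals. miR-423-3p is lower from 1 h on (98.6, 91.0 and 96.7 RPM), while miR-425-5p and miR-342-3p are lowest at 24 h (217.2 and 26.4 RPM).

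The members thus differed in when they were lower, and the 3 ratios to control share 1 control library. At 1 h, the ratio of Ang II over control was 0.753 for miR-423-3p (0.701 to 0.809), 0.872 for miR-425-5p (0.835 to 0.909) and 0.781 for miR-342-3p (0.690 to 0.882). At 3 h it was 0.695 for miR-423-3p (0.647 to 0.746), 0.965 for miR-425-5p (0.926 to 1.004) and 0.856 for miR-342-3p (0.762 to 0.962). At 24 h it was 0.739 for miR-423-3p (0.689 to 0.792), 0.642 for miR-425-5p (0.613 to 0.671) and 0.598 for miR-342-3p (0.526 to 0.680). Between neighbouring times, miR-423-3p stayed closer to its level, with a ratio of 0.923 (0.854 to 0.997) at 3 h over 1 h and 1.06 (0.986 to 1.15) at 24 h over 3 h. miR-425-5p and miR-342-3p had ratios of 1.11 (1.06 to 1.16) and 1.10 (0.967 to 1.25) at 3 h over 1 h, and of 0.665 (0.636 to 0.696) and 0.699 (0.611 to 0.798) at 24 h over 3 h.

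A miRNA counted as lower or higher if RPM + 1 differed by more than 1.5-fold and the library with more reads held at least 100. By this rule 0 of the 3 members were lower at 1 h and 0 at 3 h over control, where 2.3% of 174 and 3.98% of 176 miRNAs were lower. At 24 h over control, 2 members, miR-425-5p and miR-342-3p, were lower, beside 16.3% of 178 miRNAs. At 3 h over 1 h the rule called 0 members and 0% of 170 miRNAs lower, and at 24 h over 3 h 1 member, miR-425-5p, and 11% of 173. On the log2 scale the limit lies at −0.58. Just past it, and called lower, was miR-425-5p at 24 h over 3 h (−0.59) and at 24 h over control (−0.64). Just short of it, and not called, were miR-423-3p at 3 h over control (−0.52) and miR-342-3p at 24 h over 3 h (−0.50).

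The calls depended on the library scale. The median miRNA was itself lower by 0.25 on the log2 scale at 24 h over control (0.09 at 1 h and 0.06 at 3 h), while miR-143-3p, the main smooth muscle miRNA, took 24.8% of named reads in control cells and 30.3%, 31.0% and 30.6% after 1 h, 3 h and 24 h of Ang II. Relative to the median miRNA, the log2 ratio at 24 h was −0.18 for miR-423-3p, −0.38 for miR-425-5p and −0.47 for miR-342-3p; at 3 h it was −0.46 for miR-423-3p, 0.00 for miR-425-5p and −0.16 for miR-342-3p. At 1 h the same values were −0.31, −0.11 and −0.26. With TMM factors (edgeR), which fit the bulk of miRNAs, no member passed 1.5-fold at any time, and the 24 h log2 ratios were −0.17, −0.37 and −0.47. With these factors 1.72% of 174, 3.98% of 176 and 5.06% of 178 miRNAs were lower at 1 h, 3 h and 24 h over control. With reads scaled to matched miRNA reads, miR-423-3p passed the limit at 3 h (−0.64) and the same 2 members as before passed at 24 h (−0.71 and −0.80). On that scale 8.52% of 176 miRNAs were lower at 3 h and 24.7% of 178 at 24 h. The direction at 3 h of miR-425-5p changed with the scale (log2 0.01 with TMM factors), and no other member changed direction against control under these scales. Counting how many miRNAs had a lower ratio is unaffected by scale apart from the pseudocount: 12 of 176 lay below miR-423-3p at 3 h and 54 of 178 at 24 h, against 88 of 176 and 23 of 178 for miR-425-5p and 47 of 176 and 16 of 178 for miR-342-3p.

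**Figure D2:**
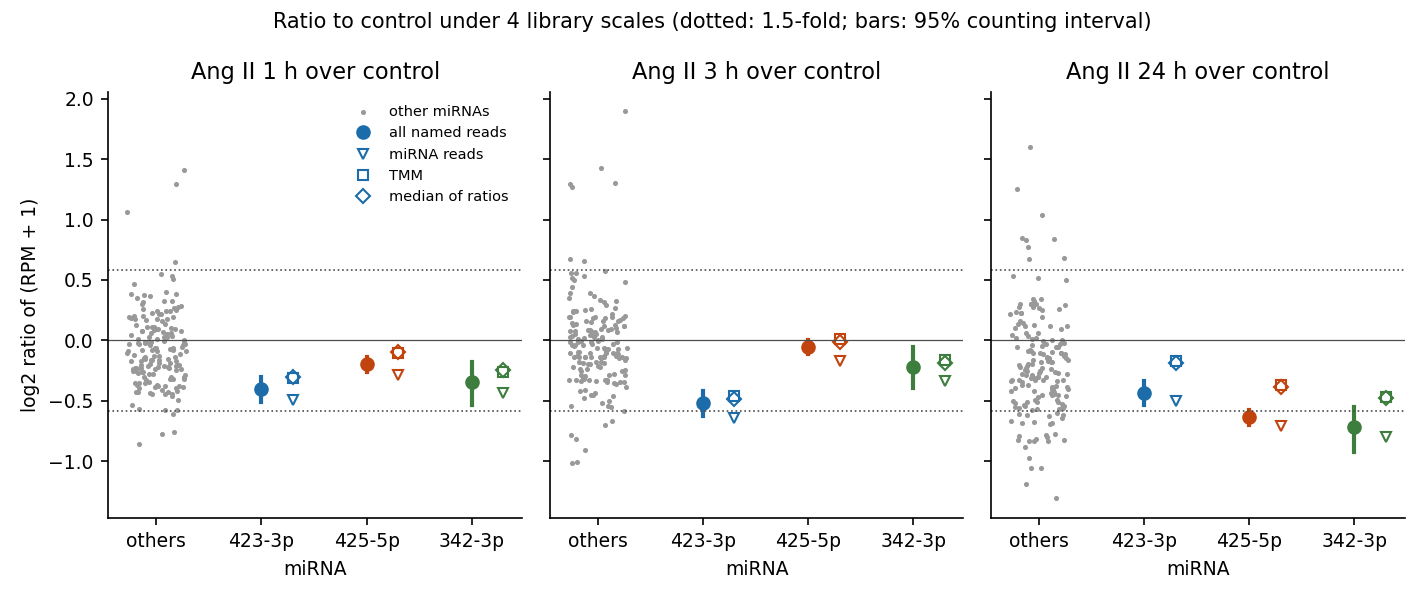
Log2 ratio of (RPM + 1) of Ang II over control at 1 h, 3 h and 24 h; grey points are the other miRNAs with at least 100 reads, filled points the 3 members scaled to all named reads with exact 95% counting intervals, and open symbols the same members under 3 other library scales. Dotted lines mark 1.5-fold; at 24 h miR-425-5p (−0.64) and miR-342-3p (−0.72) lie past the lower line when scaled to all named reads and inside it with TMM factors (−0.37 and −0.47).

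The miRNAs whose levels ran most like each member over the 4 libraries were found by the root mean square (RMS) difference of log2(RPM + 1), each centred on its own mean, among 178 others. For miR-423-3p these were let-7b-5p (0.031), miR-125a-5p (0.041), miR-214-3p (0.047), miR-99b-5p (0.049) and miR-1843a-3p (0.063). For miR-425-5p they were miR-3473 (0.027), miR-532-5p (0.032), miR-15b-5p (0.044), miR-342-5p (0.050) and miR-148a-3p (0.052), with miR-342-3p in 7th place (0.066). For miR-342-3p they were miR-342-5p (0.030), miR-497-5p (0.045), miR-148a-5p (0.047), miR-92a-3p (0.056) and miR-148a-3p (0.058), with miR-425-5p in 10th place. miR-423-3p stood at place 110 for miR-425-5p and 79 for miR-342-3p. Each distance rests on 4 libraries that share their depth and scale and is a description only.

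Reads of the opposite arms, which the choice of members did not use, are given here for starts within 2 nt of the RefSeq start. The arms of the miR-423 hairpin were read about equally often in control cells and went apart at 1 h. miR-423-3p had 158 RPM in control cells, 119 RPM at 1 h, 112 RPM at 3 h and 116 RPM at 24 h by this wider count. miR-423-5p, the opposite arm, had 158 RPM in control cells, 177 RPM at 1 h, 124 RPM at 3 h and 108 RPM at 24 h.
The 3p arm held 50.0% of the hairpin's reads in control cells (48.6 to 51.5), 40.2% at 1 h (38.6 to 41.7), 47.4% at 3 h (45.7 to 49.1) and 51.7% at 24 h (50.0 to 53.4). This share does not depend on the library scale, and the 1 h interval overlapped none of the other 3. Over control, miR-423-5p had a ratio of 1.12 at 1 h (1.06 to 1.19), 0.784 at 3 h (0.736 to 0.835) and 0.684 at 24 h (0.641 to 0.730). By the first 18 nt alone, its ratio at 3 h over 1 h was 0.702, and 1 of 170 miRNAs had a lower one. Among 34 hairpins with both arms counted, the change at 1 h over control in the log2 ratio of 3p to 5p was −0.58 for miR-423, and 6 hairpins changed by more in either direction; the middle of these 34 lay between −0.42 and 0.24 (quartiles), so the shift was large but not outside the range of the hairpins.

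The arms of the miR-342 hairpin ran side by side. miR-342-5p had 14.9 RPM in control cells (214 reads), 10.7 RPM at 1 h (140), 11.8 RPM at 3 h (169) and 8.46 RPM at 24 h (123). The 3p arm kept between 75.3% and 76.9% of the hairpin's reads in all 4 libraries, with overlapping intervals. Over control the ratio of miR-342-5p was 0.718 at 1 h (0.576 to 0.892), 0.791 at 3 h (0.643 to 0.972) and 0.569 at 24 h (0.452 to 0.714).

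In the miR-425 hairpin the 5p arm held 95.2% of reads in control cells, 95.4% at 1 h, 94.8% at 3 h and 93.9% at 24 h (93.0 to 94.6, which touches the control interval of 94.6 to 95.8). miR-425-3p had 253 reads in control cells, 191 at 1 h, 265 at 3 h and, in the last library, 212. Most of them (65.1% to 68.4%) started 1 nt before the RefSeq start shown above. The seed shown in capitals for miR-425-3p is therefore not that of most of its reads. The ratio of miR-425-3p at 24 h over control was 0.830 (0.688 to 1.00), against 0.641 (0.613 to 0.670) for miR-425-5p by the same count. The intervals did not overlap. miR-191a-5p, the neighbour in Dalrd3, had 2706 RPM in control cells, 2500 RPM at 1 h, 2366 RPM at 3 h and 2060 RPM at 24 h, and was highest in control cells. Its ratio over control was 0.924 at 1 h, 0.874 at 3 h and 0.761 at 24 h (0.750 to 0.773). There were 7.79 reads of miR-191a-5p for each read of miR-425-5p in control cells, 8.21 at 1 h, 7.06 at 3 h and 9.25 at 24 h, so the neighbours did not keep 1 proportion.

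**Figure D3:**
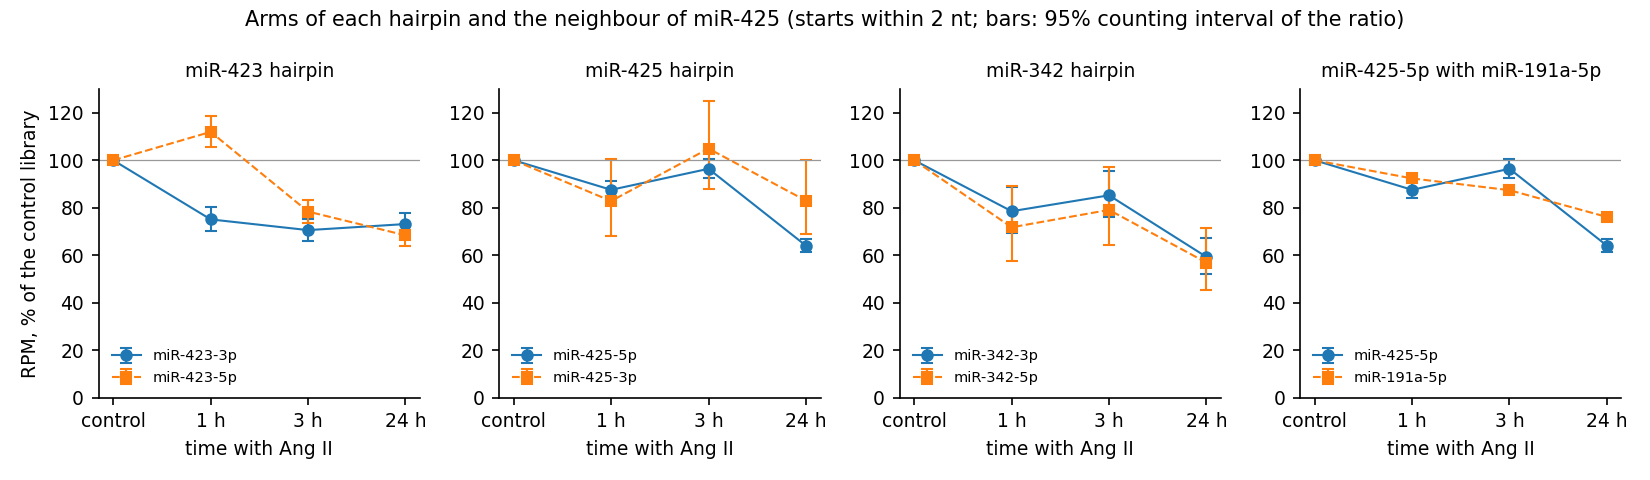
RPM as a percentage of the control library for both arms of the miR-423, miR-425 and miR-342 hairpins and for miR-425-5p beside its neighbour miR-191a-5p, in control cells and after 1 h, 3 h and 24 h of Ang II; points are single libraries and bars the exact 95% counting interval of the ratio. At 1 h miR-423-5p lies above control (ratio 1.12) and miR-423-3p below it (0.751), while both arms of miR-342 move together.

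The 3′ end of a miRNA can be shortened or extended after Dicer cuts it, and such end forms of miR-425-5p and miR-342-3p are shown as read (DNA letters), with the bases past position 22 in capitals, because the lengths did not change equally.
miR-425-5p of 22 nt: aatgacacgatcactcccgttg
miR-425-5p of 23 nt: aatgacacgatcactcccgttgA
miR-425-5p of 24 nt: aatgacacgatcactcccgttgAG
miR-425-5p of 25 nt: aatgacacgatcactcccgttgAGT
miR-342-3p of 23 nt: tctcacacagaaatcgcacccgT
miR-342-3p of 24 nt: tctcacacagaaatcgcacccgTC
All of these follow the hairpin sequence to their last base.

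In miR-425-5p the longer the form, the lower its 24 h ratio among these 4 lengths. The 25-nt form was read 745 times in control cells, 617 times at 1 h, 711 times at 3 h and 387 times at 24 h, while the 22-nt form had 890, 680, 871 and 668 reads in the same order. The ratio at 24 h over control was 0.514 (0.454 to 0.582) for 25 nt, 0.571 (0.500 to 0.652) for 24 nt, 0.666 (0.623 to 0.712) for 23 nt and 0.743 (0.671 to 0.823) for 22 nt. Neighbouring lengths overlapped, but the 25-nt interval lay below those of 23 and 22 nt.
Forms longer than the mature end thus made up 28.1% of miR-425-5p reads in control cells (26.8 to 29.3), 28.3% at 1 h, 26.7% at 3 h and 23.6% at 24 h (22.2 to 25.2). Shorter forms were 19.5% in control cells (18.4 to 20.7), 18.8% at 1 h, 19.8% at 3 h and 22.9% at 24 h (21.4 to 24.4), and the 23-nt form stayed between 45.0% and 47.3%. The mean length of its tags of 18 to 26 nt was 23.17 nt at 24 h, against 23.29 nt in control cells, a difference of −0.12 nt. Over 123 miRNAs with at least 300 reads in each library the median difference at 24 h was −0.03 nt, and 16 had a lower one than miR-425-5p.

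miR-342-3p was read mainly as the 24-nt form, 1 nt longer than the RefSeq mature sequence. It had 394 reads in control cells, 306 at 1 h, 370 at 3 h and 252 at 24 h, or 62.1%, 67.8%, 68.3% and 65.8% of the miRNA's reads. The RefSeq form of 23 nt had 108, 71, 83 and 57 reads in the same order, between 14.9% and 17.0%. At 24 h over control both were lower, with ratios of 0.633 (0.539 to 0.744) for 24 nt and 0.523 (0.372 to 0.727) for 23 nt, whose intervals overlapped.

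miR-423-3p differed from miR-425-5p and miR-342-3p in how often its reads left the hairpin sequence with a single last A. The 23-nt form that follows the hairpin made up 59.8% of its reads in control cells (57.5 to 62.0), 55.4% at 1 h (52.6 to 58.1), 52.9% at 3 h (50.2 to 55.7) and 55.5% at 24 h (52.8 to 58.1). Reads that left the hairpin sequence with a single A at the end made up 22.1% in control cells (20.2 to 24.0), 26.3% at 1 h (23.9 to 28.8), 27.4% at 3 h (24.99 to 29.9) and 25.7% at 24 h (23.5 to 28.1), and only the 3 h interval lay clear of the control's. In miR-425-5p and miR-342-3p such reads were at most 1.32% and 1.31% in any library. These shares leave out an A that matches the next hairpin base. That base is A after 22 nt in miR-425-5p and after 24 nt, the main form, in miR-342-3p. An A added to those forms would count as hairpin, so part of the difference is set by the sequences. The median over 96 miRNAs was 2.29% in control cells, 2.60% at 1 h, 2.52% at 3 h and 2.31% at 24 h. The trait was not particular to miR-423-3p: in control cells 3 of the 96 had a higher share, namely let-7i-5p (31.9%), miR-330-5p (26.1%) and miR-191a-5p (24.4%), all named after their values were seen. miR-191a-5p, the neighbour of miR-425, had 26.8% at 1 h, 29.7% at 3 h and 24.4% at 24 h.
Over control this share was 4.21 percentage points higher at 1 h, 5.31 points at 3 h and 3.67 points at 24 h. Of the other miRNAs, 0 gained more at 1 h and at 3 h, and 1 did at 24 h. At 3 h miR-191a-5p lay nearly level with it, 5.29 points above control, and miR-330-5p was 4.45 points above control; at 24 h both were below control (−0.04 and −2.89 points). By form, the hairpin 23-nt form had ratios over control of 0.698 (0.634 to 0.767) at 1 h, 0.616 (0.559 to 0.677) at 3 h and 0.686 (0.625 to 0.752) at 24 h. The form of 22 hairpin bases and an A had ratios of 0.911 (0.766 to 1.08), 0.907 (0.765 to 1.07) and 0.896 (0.757 to 1.06) at the same times, with 245, 267 and 267 reads against 295 in control cells. The interval of this A form lay above that of the hairpin 23-nt form at 3 h and at 24 h and overlapped it narrowly at 1 h. The hairpin form of 22 nt, with no A, had ratios of 0.757 (0.493 to 1.15), 0.915 (0.619 to 1.35) and 1.08 (0.741 to 1.56). The form of 23 hairpin bases and an A had 0.868 (0.652 to 1.15), 0.767 (0.574 to 1.02) and 0.801 (0.603 to 1.06). The ratios of both were above those of the hairpin 23-nt form at each time, but their wide intervals overlapped its interval. These intervals therefore cannot show whether the difference was shared by all forms with an A, or by the 22-nt form without it. The 3′ adapter named in the labels starts with A, so an added A and an adapter base left on the read cannot be told apart.

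**Figure D4:**
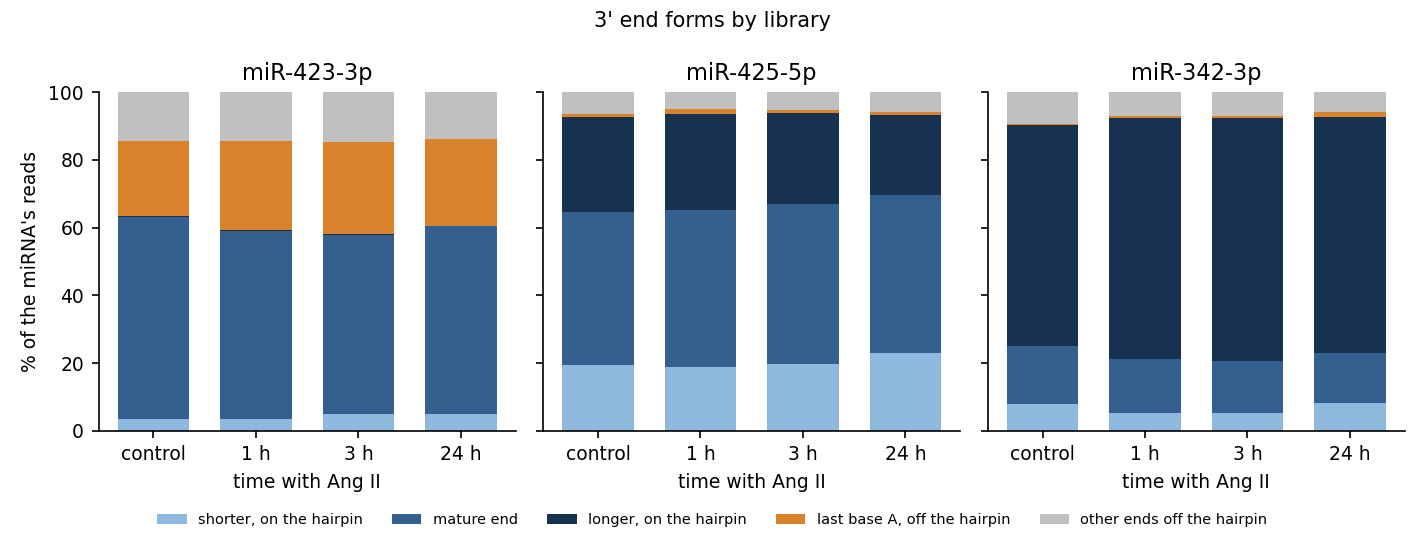
Share of each miRNA's reads (percent, stacked to 100) by 3′ end form in control cells and after 1 h, 3 h and 24 h of Ang II; forms on the hairpin are shorter than, equal to or longer than the mature end, and orange marks reads that leave the hairpin with a single last A. The orange share is largest in miR-423-3p (27.4% at 3 h, against 22.1% in control cells), and the longest forms of miR-425-5p are least frequent at 24 h (23.6%).

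**Figure D5:**
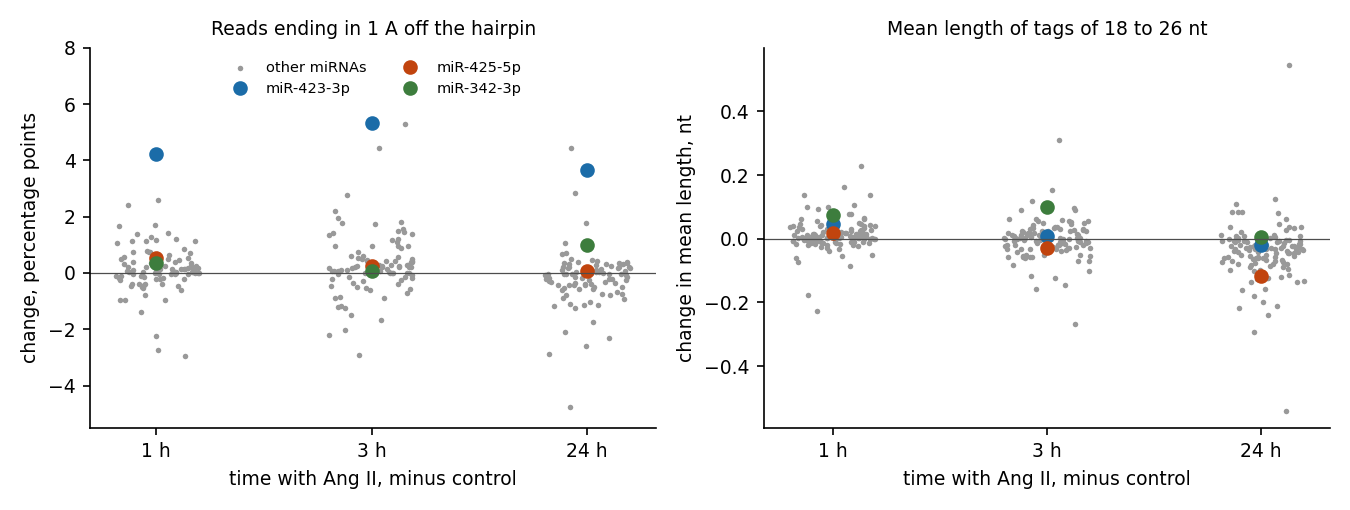
Change against the control library at 1 h, 3 h and 24 h in the share of reads ending in a single A off the hairpin (left, percentage points, 96 miRNAs) and in mean tag length (right, nt, 123 miRNAs); grey points are other miRNAs and coloured points the 3 members. miR-423-3p lies at the top on the left at 1 h and 3 h (4.21 and 5.31 points), and miR-425-5p lies below the median on the right at 24 h (−0.12 nt).

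The 5′ start sets the seed and hardly moved. Of reads starting within 2 nt of the main start, 82.8% of miR-423-3p reads in control cells began there, as did 83.0% at 1 h, 81.5% at 3 h and, at 24 h, 83.6%. A start 1 nt earlier held 15.2% to 17.3%. The main start held at least 96.8% of these reads in miR-425-5p and miR-342-3p in every library.

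A list of 40 other miRNA names, taken to lie in protein-coding genes, was drawn from general knowledge of mammals and chosen with earlier results known. Arms were matched by name, so that miR-30c brought in miR-30c-2-3p as well as miR-30c-5p. Apart from Mir191, the place of their hairpins within a host was not checked. Of these arms, 37 had enough reads. At 1 h over control 1 was lower and 0 higher, where 4 of all 174 miRNAs (2.3%) were lower and 4 (2.3%) higher. At 3 h 0 were lower and 1 higher, where 7 of all 176 (3.98%) were lower and 7 (3.98%) higher. At 24 h 6 of the 37 were lower and 0 higher, where 29 of all 178 (16.3%) were lower and 9 (5.06%) higher. The list's median log2 ratio was −0.31, against −0.25 over all 178 miRNAs. With TMM factors 0 of the 37 passed in either direction, where 9 of all 178 (5.06%) were lower and 15 higher. The 6 lower at 24 h were miR-93-5p (ratio 0.560, 0.550 to 0.570), miR-152-5p (0.563), miR-338-5p (0.618), miR-15b-5p (0.623), miR-532-5p (0.646) and miR-378a-3p (0.653). miR-338-5p was also the one lower at 1 h (0.497, 0.352 to 0.693), with 53 reads against 117 in control cells, and miR-7a-5p the one higher at 3 h (1.60, 1.38 to 1.87).

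The 4 smooth muscle markers, both arms of miR-143 and miR-145, summed to 251047 RPM in control cells. Their sum was 305774 RPM at 1 h, 312678 RPM at 3 h and 308636 RPM at 24 h, far above every other marker list. Nearly all of it was miR-143-3p (3572929 of 3613950 control reads), whose log2 ratio to control ran from 0.29 to 0.32. The rest did not all rise with it. miR-145-3p lay below control each time (−0.28 to −0.06), and miR-145-5p stayed between −0.04 and 0.11. miR-143-5p was lower after 1 h (−0.03) and 3 h (−0.14), but higher after 24 h (0.29). Of 6 blood and immune markers counted, which bear on miR-342-3p, miR-142-5p, miR-144-3p and miR-223-3p had 0 reads in every library, which allows up to 3 reads, and miR-142-3p and miR-451-5p had 1 to 7 reads per library. The sixth, miR-155-5p, which smooth muscle cells can also make, had 3101 reads in control cells, 3027 at 1 h, 2950 at 3 h and 3163 at 24 h. The summed level of these markers ran from 206 to 231 RPM and was 218 RPM at 24 h, against 216 RPM in control cells. Nearly all of that sum was miR-155-5p, and the others had at most 7 reads per library. The sum therefore cannot show the share of blood or immune cells, and nothing about miR-342-3p is drawn from it. The endothelial markers miR-126a-3p and miR-126a-5p summed to 120 RPM in control cells, 113 RPM at 1 h, 125 RPM at 3 h and 105 RPM at 24 h. Epithelial markers summed to at most 6.71 RPM, the liver marker miR-122-5p had at most 3 reads, and the striated muscle list, led by miR-1-3p, summed to 98.4 to 122 RPM; the neural marker miR-9a-5p had 31.6 to 43.8 RPM. The part of such markers in the ratios was not tested. Fewer cells of a type and less RNA per cell cannot be told apart in such libraries.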

How the data were processed

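Each deposited file lists, for 1 library, every distinct sequence (a tag of 16 to 42 nt) with its raw count. Per the labels' protocols, libraries were made from 0.5 µg of total RNA with 12 PCR cycles, size-selected at 17 to 52 nt and sequenced on a Genome Analyzer IIx. The submitters' processing notes name Novoalign and rn4, with no role. How adapters were trimmed is not stated in those sources. A line of counts that names no sequence (5.13% to 7.07% of a library's reads) was left out.

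Tags were assigned to a mature miRNA in RefSeq (GRCr8) if their first 18 nt matched, tied tags being shared equally. miR-423-3p was counted from the most-read start on the 3′ side of the RefSeq Mir423 hairpin, and its length is that of its most-read form. Calls used a pseudocount of 1 RPM, 1.5-fold and at least 100 reads. Intervals are exact Poisson, Clopper-Pearson and conditional binomial intervals. No test of conditions was possible. The named miRNAs are the members, their opposite arms, the miR-191a arms, list members past the size rule and the 5 most like each member. Members and lists were chosen with earlier results of these data known. The calling code was tested on simulated data. Alternatives were other library scales (edgeR 4.0.16 TMM factors, median of ratios, matched miRNA reads), pseudocounts, limits, prefixes and tag filters; scaling without miR-143-3p was added after seeing the data. The software was R 4.3.3 and, in Python 3.11.15, scipy 1.17.1, numpy 2.4.6, matplotlib 3.10.9 and pandas 2.3.3.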

Additional observations from a re-analysis of the deposited data

Results flagged for a closer look

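miR-423-5p, the opposite arm of miR-423-3p, lay on different sides of the control at different times. Counted by its first 18 nt, its ratio over control was 1.13 at 1 h (1.06 to 1.20), 0.793 at 3 h (0.744 to 0.845) and 0.693 at 24 h (0.649 to 0.740). Each time is 1 library and all 3 ratios share 1 control library, so the difference between times was not tested. Under the other 3 library scales the log2 ratio at 1 h ran from 0.09 to 0.28 and stayed above 0, and those at 3 h and 24 h stayed below 0.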

How the results depend on the processing

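Of 195 recomputed log2 ratios of members, 166 stayed within the counting interval of the value reported. Most of those outside came from the library scale. They were 9 of 15 with median-of-ratios factors, 8 of 15 with TMM factors, 6 of 15 without miR-143-3p and 4 of 15 with matched miRNA reads. The mature sequence alone gave 2 of 15. The number of members lower past 1.5-fold depended on the settings. At 24 h over control the count was 2, but 0 with TMM factors, median-of-ratios factors or a 2-fold limit. It was 1 with a pseudocount of 10 RPM, the mature sequence alone or named reads without miR-143-3p. Of all 178 miRNAs 16.3% were lower, but 5.06% with TMM factors and 6.18% with median-of-ratios factors, and 4 miRNAs with a 2-fold limit. At 3 h over control the count of members was 0, but 1 when scaled to matched miRNA reads or counting the mature sequence alone. Of all 176 miRNAs 3.98% were lower, and 8.52% when scaled to matched miRNA reads. At 24 h over 3 h the count of members was 1, and that call lies at the limit. It was 0 when scaled to matched miRNA reads, with TMM factors, median-of-ratios factors, a pseudocount of 10 RPM or a 2-fold limit. It was also 0 with the first 20 nt, the first 16 nt or without tags read once. Of all 173 miRNAs 11% were lower, but 9.25% with matched miRNA reads and 3.47% with TMM or with median-of-ratios factors. The log2 ratio at 24 h over control ran from −0.54 to −0.17 for miR-423-3p, −0.71 to −0.37 for miR-425-5p and −0.80 to −0.47 for miR-342-3p, and that of miR-425-5p at 3 h from −0.17 to 0.07. The number of all miRNAs lower at 24 h over control was 29, and ran from 4 with a 2-fold limit to 44 when scaled to matched miRNA reads; at 1 h it was 4 (0 to 9), at 3 h 7 (2 to 15), at 3 h over 1 h 0 (0 to 5) and at 24 h over 3 h 19 (2 to 26). Those higher were 4 at 1 h (3 to 13), 7 at 3 h (4 to 14), 9 at 24 h (3 to 15), 2 at 3 h over 1 h (1 to 8) and 6 at 24 h over 3 h (1 to 10). Of 108 recomputed shares of 3′ end forms on the hairpin (mature end, longer or shorter), 107 stayed within their intervals. The share of reads with a single A off the hairpin was not recomputed. No paired analysis was possible because each group is 1 library. With 383 to 634 reads, miR-342-3p carries the widest intervals. The cause of these differences was not tested.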
